A study of Mus musculus with 12 samples.

Results

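The Ifi200 genes studied here were Ifi203, Ifi204, Ifi206 and Ifi207, the 4 genes selected by those names from 14275 genes listed in any of 12 transcript catalogues. Together they held 60 distinct transcript events of 141591 in all. An event is a first exon, a last exon, a skipped exon or cassette of exons, a retained intron, or an exon with alternative ends, as the catalogue of a library lists it. The catalogues came from total RNA of the immortalised mouse microglial line BV-2, and each group had 3 libraries. The groups were LPS (lipopolysaccharide, a bacterial cell wall component), NMN (nicotinamide mononucleotide, a precursor of NAD), LPS with NMN (LPS+NMN), and cells labelled Control, called control here. The purpose given for the series was to learn how NMN acts on LPS-induced ferroptosis, an iron-dependent form of cell death. The labels state neither dose nor duration, and all groups were of this 1 line.

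Ifi200 genes encode PYHIN proteins, which as a rule pair a pyrin domain that binds other pyrin domains with a HIN domain that binds DNA. Many are induced by interferon, and family members such as AIM2 in mouse and human, and IFI16 in human, sense DNA in the nucleus or cytosol. In macrophages and microglia, such sensing can lead to interferon production through STING or to inflammasome assembly. The mouse genes form a cluster of related genes on chromosome 1. In GENCODE M21 on GRCm38, all 4 genes lie on the minus strand, with Ifi206 at chr1:173468485-173491041, Ifi207 at chr1:173723427-173741747, Ifi204 at chr1:173747293-173766943 and Ifi203 at chr1:173920407-173942672.

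The 4 genes resemble each other in parts of their sequence, some pairs closely and others less so. Over the 6 pairs of genes, with the best-matching exon taken where a gene has several of 1 length, the 285-nt exon that they share was between 61.8% and 91.9% identical, the 417-nt exon between 73.1% and 94.96%, and the 189-nt exon between 72.5% and 91.5%. Of the distinct 50-nt words in the annotated transcripts, 19.1% of those of Ifi204 also occurred in another family gene, most often Ifi211. The share was 15.8% for Ifi206, most often with Ifi208, 4.46% for Ifi207 and 3.87% for Ifi203. No source used here says how reads of such stretches were assigned, so events of these genes are uncertain where the stretches lie. In the annotation, Ifi203 also overlaps Mndal, another family gene, on the same strand.

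The promoters were examined for the interferon-stimulated response element (ISRE), the site that interferon-activated factors bind, because these genes are known as interferon-induced. RefSeq windows on GRCm38.p6, each from 250 bases before to 50 after a gene start, were available for Ifi206, Ifi207 and 2 starts of Ifi203. The ISRE core, GAAA repeated after any 2 bases, searched on both strands, occurred in 3 of these 4 windows and in 1131 of all 32851 windows (3.44%). It began 40 bases before the start in Ifi206, 41 in Ifi207 and 35 at the second start of Ifi203. In all 3 genes the letters were GAAATCGAAA. This exact word, picked after it was seen and contained in the ISRE core, was in 16 of 32851 windows (0.0487%). Of those 16, 3 were of these genes and 4 of the other Ifi200 genes Ifi208, Ifi213, Ifi214 and Mndal. The ISRE core in any spelling was in 7 of 10 windows of other Ifi200 genes. The second start of Ifi203 in RefSeq lies beside the start that GENCODE M21 gives Mndal, while the RefSeq windows of Mndal are elsewhere. The 120 bases before the start are given here with the shared word in capitals, from chr1:173491319-173491438, chr1:173741810-173741929 and chr1:173942493-173942612, all on the minus strand.
Ifi206: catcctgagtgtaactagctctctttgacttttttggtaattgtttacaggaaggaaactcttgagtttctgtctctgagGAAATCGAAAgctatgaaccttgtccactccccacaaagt
Ifi207: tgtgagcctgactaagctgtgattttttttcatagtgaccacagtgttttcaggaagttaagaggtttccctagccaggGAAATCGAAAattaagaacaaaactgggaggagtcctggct
Ifi203: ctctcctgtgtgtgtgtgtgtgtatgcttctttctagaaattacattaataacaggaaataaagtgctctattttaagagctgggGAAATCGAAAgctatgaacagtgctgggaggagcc
The interferon-gamma site TTCNNNGAA was in 0 of the 4 windows and in 8.30% of all windows, and the NF-kB site, GGGA and TTTCC around any 1 base, in 0 of 4 and in 0.411% of all. The TATA word TATAAA was in 1 of the 4, Ifi206 at 160 bases before the start, and in 13.6% of all windows. A match describes letters only, and no binding was measured. Distances elsewhere are given from GENCODE starts, which differ from the RefSeq starts of Ifi206 and Ifi207. For Ifi203, the start of the GENCODE transcript used lies beside the second RefSeq start. The printed bases end at 173491319 for Ifi206 and 173741810 for Ifi207, upstream of the GENCODE starts at 173491041 and 173741747.

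The catalogues give no read count, expression level or depth, so the value used for a gene is the number of its distinct events in a library. Libraries listed between 50784 and 55787 distinct events and between 11911 and 12246 genes. Control 1 had the largest catalogue and NMN 1 the smallest. The labels call the cell type macroglia. Of 12 microglia and macrophage markers 10 were listed in every library, Cx3cr1 and P2ry12 being the exceptions, whereas 2 of 5 astrocyte markers were listed in none. Fewer cells with a transcript and less of it per cell cannot be told apart in such data.

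Summed over the 4 genes, LPS libraries listed 26, 19 and 18 events, NMN libraries 23, 23 and 36, LPS+NMN libraries 22, 23 and 26, and control libraries 14, 16 and 13. No treated library was as low as any control library. The 4 genes were chosen with earlier results known, and how often other sets of 4 genes separate in this way was not tested. The means were 21 ± 4.36 in LPS, 27.3 ± 7.51 in NMN, 23.7 ± 2.08 in LPS+NMN and 14.3 ± 1.53 in control libraries (SD, n = 3 each). Control 1, with the largest catalogue, had a sum of 14, and NMN 3, with the next largest, a sum of 36. Within LPS+NMN the sums followed catalogue size (52563, 52826 and 53783 events for 22, 23 and 26), and within LPS they did not (52709, 51514 and 52738 events for 26, 19 and 18). The part of catalogue size in the sums was not tested. Ifi206 was not listed in 2 of 3 control libraries, and Ifi203, Ifi204 and Ifi207 were listed in all 12 libraries. Ifi206 passed the filter of at least 1 event in 3 libraries through its treated libraries alone. The other 3 genes were listed in every library of every group.

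**Figure D1:**
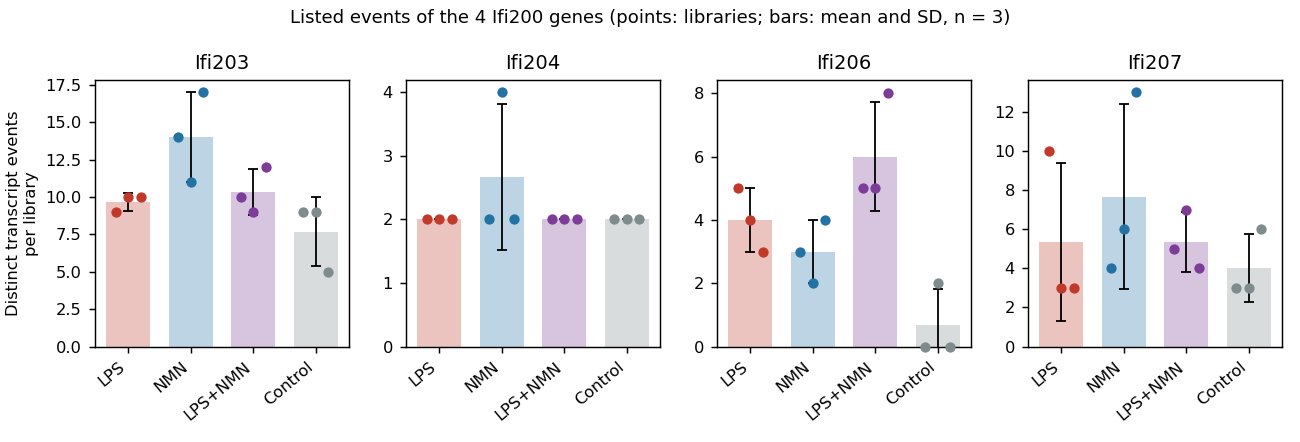
Number of distinct events of Ifi203, Ifi204, Ifi206 and Ifi207 in each library, by group, with points for libraries, bars for group means and error bars for 1 SD (n = 3). Ifi206 lies between 2 and 8 events in the 9 treated libraries and at 0, 2 and 0 in the control libraries, while Ifi204 is at 2 events in 11 of 12 libraries.

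Ifi206, a PYHIN gene of the mouse cluster, had the largest differences from control among the 4 genes on the log2(events + 1) scale, though not in numbers of events, where the NMN difference was larger for Ifi203 and Ifi207. It had 5, 4 and 3 events in LPS libraries, 3, 2 and 4 in NMN libraries, 5, 5 and 8 in LPS+NMN libraries, and 0, 2 and 0 in control libraries. The means were 4 ± 1 in LPS, 3 ± 1 in NMN, 6 ± 1.73 in LPS+NMN and 0.667 ± 1.15 in control libraries (SD, n = 3 each). LPS and LPS+NMN libraries did not overlap with control libraries, as in 2.52% of all genes tested for LPS and 2.57% for LPS+NMN, and NMN 2 tied with Control 2. With limma on log2(events + 1), fitted over 11671 genes with Benjamini-Hochberg adjustment, Ifi206 rose in LPS+NMN against control by 2.25 ± 0.38 (log2 difference ± SE, adjusted p = 0.0259). As it entered the test through treated libraries, in which it was listed, the fit was also made with no filter on low values, where the limma adjusted p was 0.021. It was the 1 gene of the 4 called in that comparison, where 0.283% of all genes tested were called with more events. The difference was 1.77 ± 0.38 for LPS against control (unadjusted p = 0.000599, adjusted p = 0.125) and 1.44 ± 0.38 for NMN against control (unadjusted p = 0.00276, adjusted p = 0.316), neither past the limma threshold of 0.05. None of the 4 genes was called in those 2 comparisons, where 0.257% of all genes for LPS and 0.223% for NMN were called with more events. The comparisons with control share the same 3 control libraries.

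The LPS+NMN call for Ifi206 held in 9 of 22 alternative settings, with limma adjusted p-values from 0.00108 to 0.212. It was lost when LPS+NMN 1, LPS+NMN 2, LPS+NMN 3, LPS 2, Control 1 or Control 3 was left out, with adjusted p between 0.053 and 0.129, and with replicate number as a block (adjusted p = 0.0872). Without Control 2, the only control library to list the gene, Ifi206 also passed in LPS against control (2.30, adjusted p = 0.00668) and in NMN against control (1.97, adjusted p = 0.0126).

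The listed structures of Ifi206 show what lay behind these numbers. The annotated last exon, exon 7, was listed in all 9 treated libraries and in no control library. The annotated first exon was listed in 8 of the 9 treated libraries and in no control library, and LPS 3 instead listed a first exon that ends 45 nt upstream of the annotated start. Control 2, the single control library with the gene, listed a first exon ending where exon 5 ends and a last exon beginning where exon 6 begins. That last exon was also listed in LPS+NMN 2. Thus the annotated gene ends were absent from the control catalogues, including the one in which the gene appeared.

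Different internal exons of Ifi206 were listed as skipped in different libraries. Exon 3, of 107 nt, is coding and not a multiple of 3 long, so that skipping it alone shifts the reading frame. It was listed as skipped in LPS 2, LPS 3, NMN 1 and NMN 3. Exon 6, of 189 nt, is coding and in frame, and was listed as skipped in LPS+NMN 1, LPS+NMN 2, LPS+NMN 3 and LPS 1. No library listed both. Skipping of exon 5 (417 nt), of exons 5 and 6 together, and of an unannotated 52-nt exon were each listed in LPS+NMN 3 alone, the library with the most Ifi206 events. The exon 3 and exon 6 sequences are printed because they separate these libraries, with the exon in capitals and 10 flanking exon bases in lower case. They are from GENCODE M21 transcripts on the minus strand of GRCm38, at chr1:173485529-173485635 and chr1:173471375-173471563, matched by exon length and spacing.
Ifi206 exon 3: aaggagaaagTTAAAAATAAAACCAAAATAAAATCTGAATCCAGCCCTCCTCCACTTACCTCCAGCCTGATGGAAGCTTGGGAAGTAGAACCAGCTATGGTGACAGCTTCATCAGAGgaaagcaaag
Ifi206 exon 6: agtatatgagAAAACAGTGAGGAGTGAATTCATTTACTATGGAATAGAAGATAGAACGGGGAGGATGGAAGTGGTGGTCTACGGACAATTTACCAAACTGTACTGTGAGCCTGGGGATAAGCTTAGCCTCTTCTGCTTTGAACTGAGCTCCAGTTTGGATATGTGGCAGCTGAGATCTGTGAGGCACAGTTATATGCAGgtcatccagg

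A retained intron of Ifi206 at chr1:173308305-173308732 (position as deposited, on an assembly that is not named) was listed in LPS 1, LPS 2, NMN 3 and all 3 LPS+NMN libraries, and in no control library. The deposited span of 428 nt includes the exon base on either side, and the segment between them has 426 nt, a multiple of 3. Matched by spacing, the segment lies within exon 4, a 1686-nt coding exon, begins with GT and ends with AG. Exon 4 is itself repetitive, with 582 of its 1657 words of 30 nt (35.1%) found more than once in it. The borders of the segment lie in an identical run of 196 nt, 85 before and 111 after each border, so the same letters surround both. The 30 bases at the borders are printed with the segment's own bases in capitals, from chr1:173481151-173481180 upstream and chr1:173480725-173480754 downstream on GRCm38, minus strand.
Upstream border: tataataaccctcagGTAACTCCAGCAACA
Downstream border: TATAATAACCCTCAGgtaactccagcaaca
The borders hold the same 30 bases, and the part that the placing of reads within this repeat has in the listing was not tested.

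**Figure D2:**
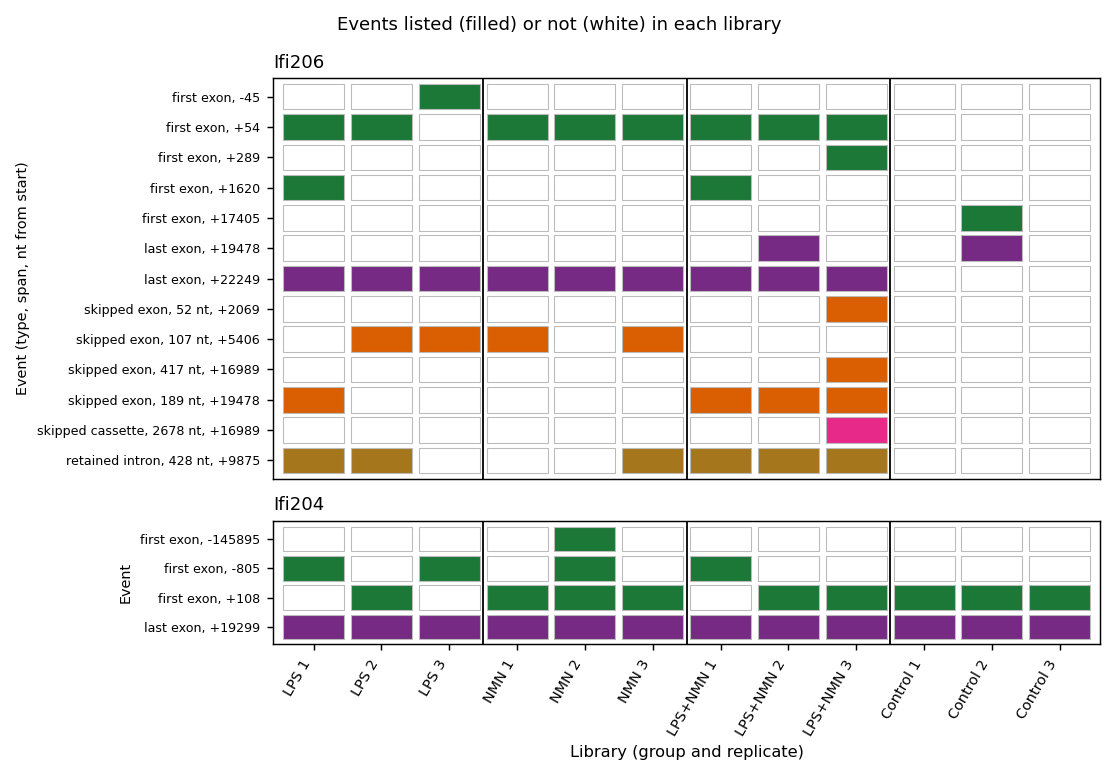
Events of Ifi206 and Ifi204 (rows, with type, length and distance in nt from the annotated start) listed, filled, or not listed, white, in each of the 12 libraries (columns). The annotated Ifi206 last exon is filled in all 9 treated libraries and white in the 3 control libraries, and the Ifi204 last exon is filled in all 12.

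Ifi203 had the most events of the 4 genes. It had 9, 10 and 10 events in LPS libraries, 14, 11 and 17 in NMN libraries, 10, 9 and 12 in LPS+NMN libraries, and 9, 9 and 5 in control libraries. The NMN libraries lay above all control libraries, as did 2.16% of all genes tested, while the LPS and LPS+NMN libraries overlapped with control. The means were 9.67 ± 0.577 in LPS, 14 ± 3 in NMN, 10.3 ± 1.53 in LPS+NMN and 7.67 ± 2.31 in control libraries (SD, n = 3 each). By limma the difference from control was 0.34 ± 0.22 for LPS (adjusted p = 0.758), 0.81 ± 0.22 for NMN (unadjusted p = 0.00369, adjusted p = 0.341) and 0.42 ± 0.22 for LPS+NMN (adjusted p = 0.71), none past the threshold.

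Much of the Ifi203 variation was in first exons. LPS libraries listed 4, 5 and 5 first exons, NMN libraries 5, 6 and 5, LPS+NMN libraries 5, 4 and 5, and control libraries 2, 4 and 1. The first exon that ends 36 nt from the annotated start, exon 1, was listed in all 12 libraries. One ending at 261 nt (exon 2) was listed in all 9 treated libraries and in Control 2, and one at 108 nt in 8 treated libraries and Control 1. A further first exon, whose inner end lies 14252 nt into the gene at position 173755805 as deposited, was listed in all 9 treated libraries and in no control library. It reaches 36 nt past the 3′ end of exon 7, a 1242-nt exon, and between 668 and 3383 nt past its 5′ end, for a length between 1946 and 4661 nt. Control 2 listed a first exon there that ended at the annotated edge of exon 7 instead. The border at 173755805 was itself listed in control libraries, as the end of a longer form of exon 7 in Control 1 and Control 2. What was absent from control libraries was its listing as a first exon.

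The internal structure of Ifi203 turned on exons 6 and 7, of 144 and 1242 nt, both coding and in frame. Their skipping together was listed in all 12 libraries. Each was also listed as skipped alone in all 9 treated libraries and in Control 3, and the 285-nt exon 3 in all 9 treated libraries and in Control 2. LPS libraries listed 3 skipped exons each, NMN libraries 4, 3 and 5, LPS+NMN libraries 3 each, and control libraries 0, 1 and 2. An alternative form of exon 7, 36 nt longer (1278 nt), stood beside the annotated one in NMN 1, NMN 3, LPS+NMN 3, Control 1 and Control 2. Exon 6 is printed as the shorter of the pair that every library listed as skipped, in capitals with 10 flanking exon bases in lower case, from chr1:173933783-173933926 on GRCm38, minus strand.
Ifi203 exon 6: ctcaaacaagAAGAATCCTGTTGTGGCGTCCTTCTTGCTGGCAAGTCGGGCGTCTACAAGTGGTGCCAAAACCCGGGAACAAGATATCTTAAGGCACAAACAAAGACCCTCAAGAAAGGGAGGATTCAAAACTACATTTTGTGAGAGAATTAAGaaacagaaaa

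Ifi204, which encodes p204, a mouse PYHIN protein studied as a DNA sensor, was the least variable. It had 2 events in every LPS, LPS+NMN and control library, and 2, 4 and 2 in NMN libraries. No splicing event of Ifi204 was listed in any library. Its last exon was listed in all 12 libraries and its annotated first exon in 9, among them all 3 control libraries. A first exon ending 805 nt upstream of the annotated start was listed in LPS 1, LPS 3, LPS+NMN 1 and NMN 2, and in the first 3 of these it replaced the annotated one. NMN 2 alone also listed a first exon 145895 nt upstream, a distance that spans other genes of the cluster. Matched by spacing, that exon overlaps the annotated 5′ end of Ifi211 and lies within the span of Mndal, both on the same strand. Whether its reads came from either gene was not tested. The limma difference was 0 for LPS and for LPS+NMN against control, and 0.25 ± 0.18 for NMN against control (adjusted p = 0.857), which rests on NMN 2. The number of events thus did not carry the exchange of first exons.

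Ifi207, another PYHIN gene, had 10, 3 and 3 events in LPS libraries, 4, 6 and 13 in NMN libraries, 5, 7 and 4 in LPS+NMN libraries, and 3, 3 and 6 in control libraries. All treated groups overlapped with control, and LPS 1 and NMN 3 stood above the rest. The means were 5.33 ± 4.04 in LPS, 7.67 ± 4.73 in NMN, 5.33 ± 1.53 in LPS+NMN and 4 ± 1.73 in control libraries (SD, n = 3 each). The limma differences from control were 0.22 ± 0.45 for LPS (adjusted p = 0.935), 0.71 ± 0.45 for NMN (adjusted p = 0.805) and 0.37 ± 0.45 for LPS+NMN (adjusted p = 0.854). Without LPS 1 the LPS difference changed sign to -0.27. The first and last exons of Ifi207 were annotated ones and were listed in all 12 libraries, so the variation was in internal exons.

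One cassette of Ifi207, from 173556448 to 173564037 as deposited, was listed in all 6 libraries with NMN (NMN and LPS+NMN) and in none of the 6 without it (LPS and control). It joins exon 1 to exon 6 and leaves out exons 2 to 5. Of all 141591 events, 9 had this listing (0.00636%), and the event was chosen after its values were seen. Other Ifi207 cassettes fell elsewhere: 1 that joins exon 1 to exon 7 in LPS 1, 1 in NMN 2 and NMN 3, and 2 in Control 3. Exon 5 alone, of 1659 nt and coding, was listed as skipped in NMN 2, NMN 3 and Control 3. An unannotated 159-nt exon was listed as skipped in 7 libraries of all groups, and a 120-nt form of it in 5. Alternative ends of exon 3, of 218 nt, were listed in LPS 1, NMN 3, LPS+NMN 1 and LPS+NMN 2.

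**Figure D3:**
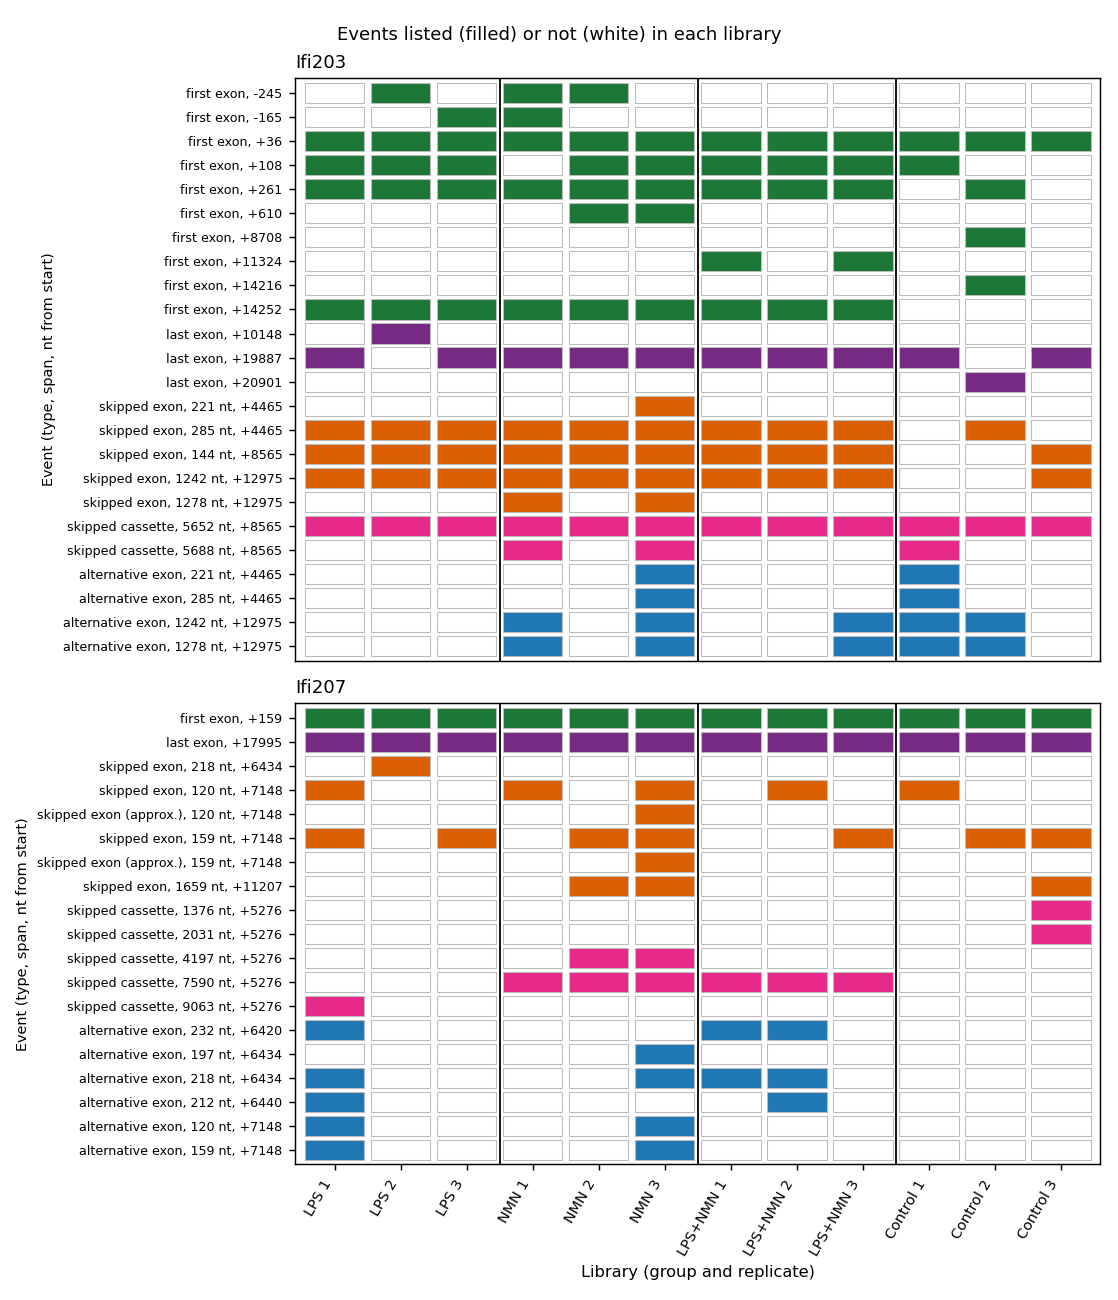
Events of Ifi203 and Ifi207 (rows, with type, length and distance in nt from the annotated start) listed, filled, or not listed, white, in each of the 12 libraries (columns). The Ifi203 first exon at 14252 nt is filled in all 9 treated libraries and in no control library, and the 7590-nt Ifi207 cassette is filled in the NMN and LPS+NMN libraries only.

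**Figure D4:**
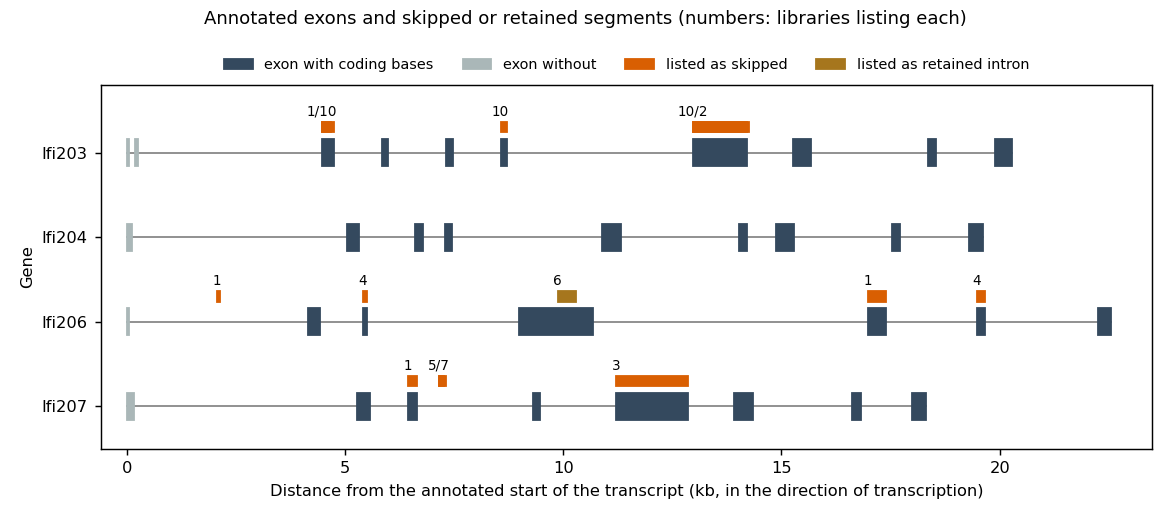
Annotated exons of each gene (boxes below, distance in kb from the annotated start) and the segments listed as skipped or as a retained intron (boxes above), with the number of libraries of 12 that listed each. For a segment with a pair of listed lengths the numbers are joined by a slash, and Ifi204 has no such segment.

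Set side by side, member events present in all libraries of a group and in none of the control libraries numbered 2 of 46 for LPS, 4 of 47 for NMN and 6 of 43 for LPS+NMN. The share of all events with the same listing was 0.597% for LPS (633 of 106022), 0.545% for NMN (576 of 105735) and 0.632% for LPS+NMN (675 of 106733). The reverse listing, in all control and no treated libraries of the comparison, held for 0 member events in each, against 0.613% of all events for LPS, 0.473% for NMN and 0.585% for LPS+NMN. The 2 LPS events were the Ifi203 first exon at 173755805 and the Ifi206 last exon. NMN added the annotated Ifi206 first exon and the Ifi207 cassette, and LPS+NMN added these and also the skipped exon 6 and the retained intron of Ifi206. Events of 1 gene are not independent, and most of the LPS+NMN events were of Ifi206, which was listed in 1 control library only. The shares of all events do not take this into account. These counts depend on the matching of gene ends: with first and last exons matched by start and end they were 0 for LPS, 1 for NMN and 3 for LPS+NMN, and the reverse listing held for 1 member event for LPS, 1 for NMN and 0 for LPS+NMN. In all 9 treated and no control libraries there were 2 member events of 60 (0 with the matching by start and end), where 120 of 141591 events overall (0.0848%) had that listing. With 3 libraries against 3, no exact two-sided test can go below p = 0.1, so these listings are a description. Without Control 2 or without Control 3, 4 member events in place of 2 were in all treated and no control libraries.

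LPS+NMN was also set against LPS, the comparison named in the series' purpose, and against NMN. None of the 4 genes passed limma's threshold in either. Over all genes tested 0 were called in each (0%), with 521 (4.46%) at an unadjusted p under 0.05 against LPS and 531 (4.55%) against NMN, and none of the 4 genes was among these. Without trend and robust moderation 6 genes were called in each, and without LPS 1, 11 were called in LPS+NMN against LPS. Ifi206 averaged 6 ± 1.73 events in LPS+NMN and 4 ± 1 in LPS libraries, a log2 difference of 0.48 ± 0.38 (adjusted p = 0.93). Against the 3 ± 1 events in NMN libraries the difference was 0.81 ± 0.38 (unadjusted p = 0.0556, adjusted p = 0.938), with no overlap between the groups, as in 1.53% of all genes. Ifi203 had fewer events in LPS+NMN than in NMN libraries, by a difference of -0.39 ± 0.22 (adjusted p = 0.938). Ifi207 differed by 0.15 (adjusted p = 1) from LPS and by -0.34 (adjusted p = 0.938) from NMN.

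The interaction asks whether the effect of LPS is the same with and without NMN. For Ifi203 it was -0.73 ± 0.32 (unadjusted p = 0.0405, adjusted p = 0.819), for Ifi206 -0.96 ± 0.54 (adjusted p = 0.868), for Ifi207 -0.56 ± 0.63 (adjusted p = 0.896) and for Ifi204 -0.25 ± 0.26 (adjusted p = 0.896). None passed the threshold with limma, which 0.0428% of all genes did, and 5.75% of all genes had an unadjusted p under 0.05. At event level, 1 member event of 42 was in all LPS+NMN and no LPS libraries, the Ifi207 cassette, against 0.408% of all events. Against NMN it was 1 of 50, the skipped exon 6 of Ifi206, against 0.321%.

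**Figure D5:**
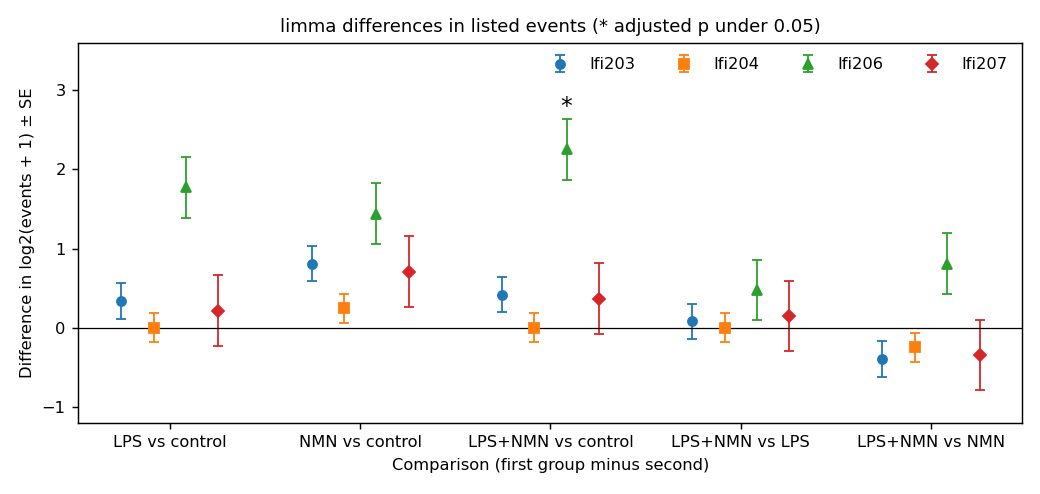
Difference in log2(events + 1) for the 4 genes in 5 comparisons, first group minus second (points, with bars for 1 standard error from limma), and an asterisk where the adjusted p is under 0.05. The asterisk marks Ifi206 in LPS+NMN against control, at 2.25.

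Of the 11 other Ifi200 genes, 9 were listed and 8 could be tested, and none was called in any comparison. Their median log2 difference was 0.43 for LPS, 0.55 for NMN and 0.09 for LPS+NMN against control, where the median over all genes was 0. Of these 8, Ifi208, Ifi213 and Ifi214 were at 0 in every control library and passed the filter through treated libraries alone. Their differences from control could not be negative, so the medians lean upward. Ifi213 had 2, 2 and 0 events in LPS libraries, 3, 2 and 2 in NMN libraries, 2 each in LPS+NMN libraries and 0 in every control library, with limma differences from control of 1.06 for LPS (adjusted p = 0.45), 1.72 for NMN (adjusted p = 0.247) and 1.58 for LPS+NMN (adjusted p = 0.199). Ifi214 was likewise at 0 in every control library, with 2, 0 and 0 events in LPS libraries, 2 each in NMN libraries and 2, 2 and 0 in LPS+NMN libraries. Aim2, which starts the DNA-sensing inflammasome, had 6, 6 and 14 events in LPS libraries, 16, 15 and 16 in NMN libraries, 9, 10 and 5 in LPS+NMN libraries and 10, 7 and 6 in control libraries (NMN against control 0.97, adjusted p = 0.47). Ifi205, Ifi209, Ifi211 and Mndal were listed in all 12 libraries, Ifi208 in 3 and Ifi202b in 2, and Mnda and Pyhin1 in none.

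Of the genes of the surrounding pathways, 1 passed the test. Zbp1, a nucleic acid sensor placed in the list of 9 DNA-sensing genes, had 2 events in each of the 9 treated libraries and 0 in each of the 3 control libraries. It differed from control by 1.58 ± 0.22 in each treated group, with limma adjusted p-values of 0.00618 for LPS, 0.00715 for NMN and 0.00676 for LPS+NMN. Zbp1 passed the filter through treated libraries alone, and as its libraries did not vary within groups, the SE is that of limma's moderation. The other 8 genes of that list were not called in any comparison. Of 8 tested inflammasome genes and 8 tested interferon receptor signalling genes, none was called in any comparison.

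By the smallest mean absolute difference over the 12 libraries, after subtracting each gene's own mean of log2(events + 1), the genes most like Ifi206 were Zfp811 (0.278), Hpgds (0.327), Mdk (0.359), Slfn4 (0.375) and Olfr129 (0.384). Zfp811, Mdk and Olfr129 also had 0, 2 and 0 events in the control libraries. For Ifi203 they were Mpv17l (0.132), Fzd6, Kdm7a, Lgmn and Mbd6, and for Ifi207 Lcor (0.276), Acad10, Bsdc1, Iqcb1 and Xdh. Ifi204 shared its values with 7 genes exactly, so its nearest genes (Adrm1, Asb6, Hectd3, Il18rap and Msh6) are ties. The order of closeness is a description of event numbers.

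Markers of some other cell types moved with the groups. Astrocyte markers did not, with sums between 2 and 6 in LPS, 2 and 4 in NMN, 2 and 5 in LPS+NMN, and 2 and 4 in control libraries. Neuron markers overlapped too, with sums between 2 and 4 in LPS and LPS+NMN libraries and 2 in NMN and control libraries. Of the lymphocyte markers, Cd4 and Cd79b together had 0, 2 and 0 events in LPS libraries, 0, 2 and 0 in NMN libraries, 2, 4 and 2 in LPS+NMN libraries and 4 in every control library, and Cd3e and Cd3g were at 0 in all 12. The 5 oligodendrocyte markers summed to between 6 and 8 in LPS, 4 and 8 in NMN, 5 and 8 in LPS+NMN, and 9 and 11 in control libraries, with Mog at 0 in all 12. Within that list Mag (LPS 1, NMN 3 and LPS+NMN 2) and Olig2 (LPS 2) went the other way, being listed in no control library. The oligodendrocyte sums of treated and control libraries did not overlap, and neither did the summed events of the 4 Ifi200 genes, which ran the other way. The part of these markers in the results was not tested.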

How the data were processed

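Total RNA of BV-2 cells had been extracted with Trizol and sequenced on an Illumina instrument, per the labels' protocols. The authors deposited 1 file per library, which lists transcript events with their type, gene, start, end and strand, per the file headers. It holds no other measurement. HOMER, MACS2 2.1.0, BWA 0.7.12 and the build GRCm38 are named in the submitters' processing notes, while no source used here names the program that made the lists. Sequencing depth is unknown. Groups and replicate numbers are those of the sample titles. The labels do not say whether replicate libraries are separate cultures, and the spread that p-values rest on may therefore be technical.

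Partner lines without the event and repeated lines were dropped. An exon at a gene end was taken as the same event in 2 libraries when type, gene and inner end (the pattern field) agreed, and any other event when type, gene, start and end did. Event numbers were compared on the scale log2(events + 1) in limma 3.58.1 (R 4.3.3; trend and robust moderation), where 4 group means left 8 residual degrees of freedom. The filter, at least 1 event in 3 libraries, removed 1500 genes, 1104 more were constant, and 11671 were tested, with Benjamini-Hochberg adjustment at 0.05. Alternatives changed the filter, pseudocount, moderation, samples, event types, matching, a covariate, the replicate block and each library in turn.

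Positions in the files are not on GRCm38. All 4 genes had 1 shared shift to GENCODE M21, after which 31 of 52 event ends matched exon ends. Event positions are printed as deposited and were not converted. The 4 genes, the gene lists and the tests were chosen with earlier results of these data known. Named genes are the 4 members, the listed other Ifi200 genes, list genes called in any comparison, and the 5 genes nearest to each member. One marker of the cell type lists is not reported here.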

Additional observations from a re-analysis of the deposited data

Results flagged for a closer look

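For Ifi203, the difference with LPS had opposite signs with and without NMN, but the groups overlapped in both comparisons. Neither difference passed the limma threshold (adjusted p = 0.758 for LPS against control and 0.938 for LPS+NMN against NMN). The mean number of events in LPS+NMN libraries differed by -3.67 from that in NMN libraries, while that in LPS libraries was 2 above that in control libraries. The test of the difference itself, the limma interaction on log2(events + 1), gave -0.73 ± 0.32 (SE), with an unadjusted p = 0.0405 and an adjusted p = 0.819 over all genes, which does not pass the threshold. With splicing events only, both effects of LPS were negative on that scale, -0.54 in LPS+NMN against NMN and -0.054 in LPS against control, and the interaction was -0.49 (adjusted p = 0.95). Leaving out single libraries gave interaction values between -0.88 and -0.48. Without Control 3 the LPS difference from control was 0.092 on that scale. The interaction was negative in 7 of 8 other Ifi200 genes tested (median -0.88) and positive in 1. Over all 11671 genes tested it was negative in 5199. Of those 8, Ifi208, Ifi213 and Ifi214 were at 0 in every control library and passed the filter through treated libraries alone. A control value of 0 with similar treated values gives a negative interaction, as for Zbp1 (-1.58). The signs of these genes are therefore no support for the Ifi203 result.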

How the results depend on the processing

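The Ifi206 difference in LPS+NMN against control kept its direction in all 22 alternative settings and its limma call in 9. It was not called with at least 5 events in 3 libraries (2.25, adjusted p = 0.0817), without trend and robust moderation (2.25, adjusted p = 0.0534), with only the 2 groups compared (2.25, adjusted p = 0.212), with splicing events only (1.92, adjusted p = 0.197), with first and last exons only (1.47, adjusted p = 0.106) or with each library's number of listed genes as covariate (2.24, adjusted p = 0.0909). With replicate number as a block it was 2.25 (adjusted p = 0.0872). The replicate numbers did not pair the libraries: the 18 correlations of same-numbered libraries ran from -0.027 to 0.0206, none over 0.1. The 4 genes had no other call that the block could remove, and none was gained with it. Leaving out 1 library gave values from 1.99 to 2.78, and for Ifi206 from 1.51 to 2.30 in LPS and from 1.18 to 1.97 in NMN against control, with both called only without Control 2. The causes of these changes were not tested, beyond the fewer samples or events that some settings use.

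Ifi203 in LPS against control turned to -0.054 with splicing events only, and in LPS+NMN against LPS ran from -0.023 to 0.17 when 1 library was left out. Ifi207 then ran from -0.27 to 0.49 in LPS against control, from -0.094 (also -0.033 without LPS+NMN 2) to 0.64 in LPS+NMN against LPS, and from -0.67 to 0.071 in LPS+NMN against NMN. None of these was called in any setting.

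Over all genes the calls were 35 for LPS, 27 for NMN and 39 for LPS+NMN against control. With at least 5 events in 3 libraries they were 3, 3 and 10, with only the groups compared 1, 1 and 3, and with splicing events only 3, 2 and 8. LPS+NMN against LPS, at 0, gave 3 with a pseudocount of 0.5, 6 without trend and robust moderation and 1 with splicing events only. LPS+NMN against NMN, at 0, gave 6 without that moderation. The interaction, at 5, gave 1 with at least 5 events, 39 without that moderation and 0 with splicing events only. With 1 library left out the calls ran from 32 to 55 for LPS, 27 to 44 for NMN, 32 to 55 for LPS+NMN against control, 0 to 11 for LPS+NMN against LPS, 0 to 0 against NMN and 4 to 6 for the interaction.

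With first and last exons matched by start and end, which lets the outer end of an exon vary the match, member events in all treated and no control libraries of a comparison numbered 0 for LPS, 1 for NMN, 3 for LPS+NMN and 0 for all 9 treated libraries, and events in all control and no treated libraries 1 for LPS and 1 for NMN. With 1 library left out they ran from 2 to 4 for LPS, 4 to 6 for NMN, 6 to 8 for LPS+NMN and 2 to 4 for all treated libraries, and in the reverse direction from 0 to 2 for LPS. LPS+NMN and no LPS ran from 1 to 2, LPS and no LPS+NMN from 0 to 1, LPS+NMN and no NMN from 1 to 2, and NMN and no LPS+NMN from 0 to 3. The summed events differed from control by 2.67 for LPS and 4.67 for LPS+NMN with splicing events only, and by 5 for NMN and 4.67 for LPS+NMN with first and last exons only. Depth is unknown, so an event that is not listed may be unlisted for want of reads.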
